A study of Mus musculus with 6 samples.

Results

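This account covers 35 genes of the primary cilium in mouse dermal fibroblasts, chosen by symbol from known components of intraflagellar transport (IFT), the BBSome, the transition zone and the ciliary rootlet. All 35 matched a row among the 28293 genes counted. RNA-seq libraries were made from polyadenylated RNA of dermal fibroblasts labelled Lap2alpha KO (KO, 3 libraries) and of dermal fibroblasts labelled wildtype (WT, 3 libraries), grown in DMEM with fetal calf serum. LAP2alpha is a soluble LAP2 isoform, known as a partner of A-type lamins away from the nuclear envelope. The labels give neither the way the knockout was made nor whether replicates were separate cultures or clones. The p-values therefore measure the spread between these libraries, which may be technical, and a difference between lines cannot be told apart from the loss of LAP2alpha.

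The primary cilium is a single antenna-like organelle that grows from the mother centriole of most fibroblasts after they leave the cell cycle, and it is resorbed before division. IFT trains carry cargo along its microtubules: IFT-B trains move to the tip with kinesin-2, and IFT-A with cytoplasmic dynein 2 brings them back. The BBSome is a coat-like complex that carries membrane proteins out of the cilium, the transition zone is the gate at its base, and the rootlet is a fibre that anchors the basal body. Fibroblasts use this organelle to receive Hedgehog and PDGF signals. Many ciliary genes are known targets of RFX transcription factors, which bind a sequence called the X-box.

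Most of the cilium genes were higher in KO. Of the 35 genes, 34 passed the filter on low counts, 23 rose, 4 fell and 7 were not called (edgeR quasi-likelihood test, Benjamini-Hochberg adjusted p under 0.05). Among all 15081 tested genes 37.7% were called higher and 37.5% lower, and 75.1% were called in either direction, so a call by itself was common in these data. The cilium genes' share of increases was 67.6% and their share of decreases 11.8%. Their median log2 fold change was 0.60, beside 0.01 for all tested genes. Crocc2 passed the filter through the KO libraries alone, and without it 22 of 33 tested genes rose, with a median of 0.59. The 35 genes together took 863 to 879 CPM (a count as its share of the library total, scaled to 1000000) in the KO libraries and 514 to 548 CPM in the WT libraries. In bulk libraries more cells expressing a gene and more RNA per cell cannot be told apart.

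The changes were mostly modest. Called increases of at least 2-fold were found for 7 of the 34 tested genes, or 20.6%, against 16.7% of all tested genes, and for 6 of 33 (18.2%) without Crocc2. No called decrease reached 2-fold among the cilium genes, where 11.4% of all tested genes had one. KO and WT libraries were fully separate for 31 of the 34, or 91.2%, against 76.8% of all tested genes, and for 30 of 33 (90.9%) without Crocc2. Tested against a fold of 1.5 (edgeR glmTreat), 11 of the 34 cilium genes were called higher and 0 lower, with 10 of 33 higher (30.3%) without Crocc2. Of all 15081 tested genes, that test called 3094 higher and 2527 lower.

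**Figure D1:**
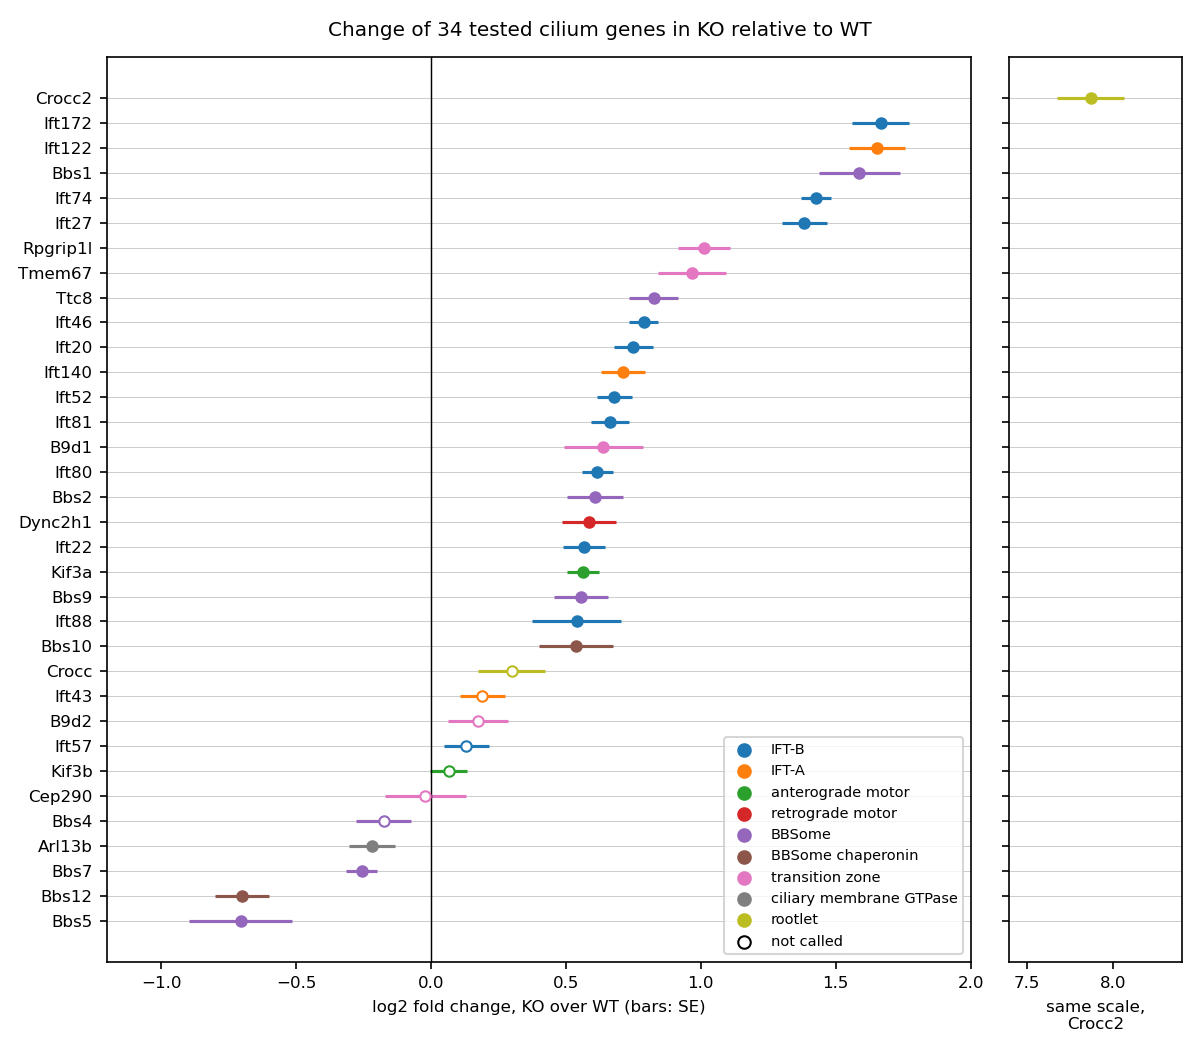
The log2 fold change of KO over WT with its standard error (horizontal axis) is drawn for the 34 tested cilium genes, coloured by module, with open symbols for genes that were not called. Crocc2 stands alone in the right-hand panel at 7.87, and the other genes lie between -0.71 and 1.67.

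The libraries held 25768678 to 27281473 counts in KO and 22159339 to 26553616 counts in WT. Tmpo, which encodes LAP2alpha and the membrane-bound LAP2 isoforms together, had 135, 122 and 131 CPM in KO libraries against 254, 248.9 and 252 CPM in WT libraries, a log2 fold change of -1.04 (standard error 0.0549, adjusted p = 4.9e-08 by edgeR). Of 10 dermal fibroblast markers 9 rose and 1, Thy1, fell (Thy1 was named after its value was seen). Among all tested genes 37.7% were called higher and 37.5% lower. The markers' summed level was 22720 to 24119 CPM in KO against 5836 to 6228 CPM in WT, with a median log2 fold change of 2.63. Lum, among those that rose, passed the filter on low counts through the KO libraries alone. The groups thus differed in fibroblast markers as well, and a link to the cilium genes was not tested. Markers of other skin cells were low: the matched keratinocyte markers summed to 3.36 to 5.06 CPM in KO and 4.59 to 6.72 CPM in WT, nearly all of it Krt10, with Krt14 at 0.0503 and 0.0286 CPM. Matched endothelial markers summed to 0.233 to 0.880 CPM in KO and 1.26 to 1.47 CPM in WT, and leukocyte markers to 0.550 to 1.36 CPM in KO and 0.677 to 0.689 CPM in WT.

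The RefSeq promoters of the 35 genes (GRCm38.p6, 250 bases before to 50 bases after the start site) were read for the X-box. A promoter was found for 31 of the 35 genes, and not for Ift80, Ift81, Ift122 and Tmem67. The core hexamer GTTGCC, on either strand, lay in the promoters of 16 of the 31, or 51.6%, against 14.9% of the 10030 tested genes with a promoter entry and 14.1% of all 27025 genes with one. Within 50 bases of the start site it lay in 10 of the 31 promoters (32.3%) and in 5.82% of those of tested genes. The longer X-box palindrome (GTTNCC, then 2 free bases, then its reverse complement GGNAAC), which overlaps the hexamer, lay in the promoters of Bbs7 and Mks1, or 6.45%, against 0.668% of those of tested genes. Of 19 genes with a promoter that rose in KO, 9 held the hexamer, as did 3 of 4 that fell and 3 of 7 that were not called. Both IFT-B genes (Ift172, Ift27, Ift88 and Ift57) and BBSome genes (Bbs1, Bbs5 and Bbs7) held it. A match is a run of letters and not a measured binding site. The genes were chosen as ciliary, and a link of the hexamer to the change in KO was not tested.

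Among genes with a promoter entry, those of the 4 most increased that hold the hexamer are shown with those of Bbs5 and Bbs7, which hold it and fell. Arl13b, whose decrease was the smallest of the 4 and did not pass under every setting, holds it at position -181 and is not shown. Each is written 5′ to 3′ on the gene's own strand, with the hexamer, or in Bbs7 the whole palindrome, in capitals. They lie at chr1:93168173-93168472 (Crocc2, plus strand), chr5:31291065-31291364 (Ift172, minus strand), chr19:4906578-4906877 (Bbs1, minus strand), chr15:78174032-78174331 (Ift27, minus strand), chr2:69646921-69647220 (Bbs5, plus strand) and chr3:36613340-36613639 (Bbs7, minus strand).
Crocc2: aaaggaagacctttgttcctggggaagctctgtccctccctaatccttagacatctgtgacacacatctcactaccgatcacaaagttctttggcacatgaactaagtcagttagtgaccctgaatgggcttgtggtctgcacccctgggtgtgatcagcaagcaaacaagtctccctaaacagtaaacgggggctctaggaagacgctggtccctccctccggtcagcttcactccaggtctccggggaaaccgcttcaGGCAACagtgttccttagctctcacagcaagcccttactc
Ift172: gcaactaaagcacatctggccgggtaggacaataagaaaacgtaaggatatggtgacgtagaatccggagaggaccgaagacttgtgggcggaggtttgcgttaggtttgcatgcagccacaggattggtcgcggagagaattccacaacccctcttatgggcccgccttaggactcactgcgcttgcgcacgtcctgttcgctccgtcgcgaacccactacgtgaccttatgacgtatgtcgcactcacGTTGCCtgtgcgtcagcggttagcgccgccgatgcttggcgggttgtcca
Bbs1: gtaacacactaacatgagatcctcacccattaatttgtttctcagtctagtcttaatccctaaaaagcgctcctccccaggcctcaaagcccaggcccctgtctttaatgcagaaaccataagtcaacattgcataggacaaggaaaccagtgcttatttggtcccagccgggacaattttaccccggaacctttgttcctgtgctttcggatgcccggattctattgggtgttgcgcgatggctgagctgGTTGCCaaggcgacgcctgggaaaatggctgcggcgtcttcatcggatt
Ift27: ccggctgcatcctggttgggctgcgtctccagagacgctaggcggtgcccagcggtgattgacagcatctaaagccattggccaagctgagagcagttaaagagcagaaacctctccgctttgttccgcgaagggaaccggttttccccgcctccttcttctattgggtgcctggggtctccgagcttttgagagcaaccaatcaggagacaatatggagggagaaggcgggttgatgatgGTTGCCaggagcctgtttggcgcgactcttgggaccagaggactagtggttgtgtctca
Bbs5: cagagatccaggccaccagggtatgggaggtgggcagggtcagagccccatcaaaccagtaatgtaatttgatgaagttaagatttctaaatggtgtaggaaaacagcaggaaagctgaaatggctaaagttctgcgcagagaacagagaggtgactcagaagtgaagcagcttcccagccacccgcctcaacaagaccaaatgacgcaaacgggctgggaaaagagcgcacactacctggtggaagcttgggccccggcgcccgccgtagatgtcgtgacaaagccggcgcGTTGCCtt
Bbs7: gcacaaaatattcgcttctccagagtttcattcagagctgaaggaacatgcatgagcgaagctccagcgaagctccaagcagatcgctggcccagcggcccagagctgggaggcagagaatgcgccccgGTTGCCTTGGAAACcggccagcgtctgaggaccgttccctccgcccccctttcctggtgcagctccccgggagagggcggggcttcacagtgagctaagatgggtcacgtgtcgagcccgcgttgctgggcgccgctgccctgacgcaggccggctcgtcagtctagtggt
Counted from the start site as position 1, the hexamer began at position 11 in Crocc2, 1 in Ift172, 2 in Bbs1, -9 in Ift27, 43 in Bbs5 and -121 in Bbs7. In Crocc2 it stands in the reverse orientation. The Crocc2 window held 6 CpG dinucleotides, the fewest of the 31 genes, whose median was 20, beside a median of 21 for tested genes. The RefSeq start of Crocc2 used here (position 93168423) lies upstream of the start that GENCODE M21 gives (93168725).

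The RFX factors themselves showed no common direction. Of 8 named, 6 matched a row and 5 were tested, of which 1 rose, 1 fell and 3 were not called. Beside this list and each list below stand the shares of all tested genes, 37.7% called higher and 37.5% lower. Rfx5, known chiefly for MHC class II genes, rose to 25.2 ± 0.411 CPM in KO against 8.55 ± 1.05 CPM in WT (SD, n = 3 each; log2 fold change 1.48). Rfx3, a known regulator of ciliary genes in mouse, fell to 5.47 ± 0.831 CPM in KO against 9.11 ± 1.01 CPM in WT (log2 fold change -0.81, edgeR adjusted p = 0.00026).

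Of the 11 IFT-B genes 10 rose and 1, Ift57, was not called. Their summed level was 446 to 450 CPM in KO and 226 to 239 CPM in WT, a ratio of 1.93. Ift172 encodes the largest IFT-B subunit, at the periphery of the train. It stood at 24.8, 28.1 and 31.2 CPM in KO libraries against 7.54, 9.001 and 8.52 CPM in WT libraries. All KO libraries lay above all WT libraries, and the log2 fold change was 1.67 (standard error 0.106, adjusted p = 1.9e-07 by edgeR).

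Ift74 and Ift81 encode partners that together bind tubulin as cargo. Ift74 had 92.8, 87.3 and 85.0 CPM in KO libraries against 30.6, 30.5 and 32.4 CPM in WT libraries, a log2 fold change of 1.43 (standard error 0.0564, adjusted p = 6.9e-09 by edgeR). Ift81 had 41.5, 39.7 and 38.1 CPM in KO libraries against 21.5, 24.9 and 24.8 CPM in WT libraries, with a log2 fold change of 0.66. Both sets of values were separate, and the increase of Ift74 was the larger of the pair by its fitted value. Scaled to exonic length, Ift74 was the most abundant of the 35 genes in KO at 33.3 RPKM (CPM divided by the exonic length in kilobases), with Ift20 next at 26.7 RPKM. In WT the order of these genes was the reverse, with Ift74 at 11.7 RPKM and Ift20 at 15.0 RPKM.

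Ift27, a small Rab-like GTPase that helps the BBSome leave the cilium, had 31.5, 31.3 and 36.1 CPM in KO libraries against 11.7, 11.6 and 12.7 CPM in WT libraries. The groups did not overlap and the log2 fold change was 1.38 (standard error 0.0834, adjusted p = 1.3e-07 by edgeR). The other IFT-B genes that rose did so by less, with log2 fold changes of 0.79 for Ift46, 0.75 for Ift20, 0.68 for Ift52, 0.62 for Ift80, 0.57 for Ift22 and 0.54 for Ift88. Ift20 also works at the Golgi, and Ift22 is another Rab-like GTPase. Ift88, the subunit mutated in the classic polycystic kidney mouse, had 6.78, 7.99 and 6.95 CPM in KO libraries against 4.29, 3.804 and 6.08 CPM in WT libraries, and its edgeR adjusted p of 0.012 was 0.052 without WT replicate 2. Ift57 had 17.2 ± 1.22 CPM in KO and 14.9 ± 0.789 CPM in WT (SD, n = 3 each), with a log2 fold change of 0.13 and an edgeR adjusted p of 0.17. An antisense gene model lies opposite 7.86% of its exons.

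**Figure D2:**
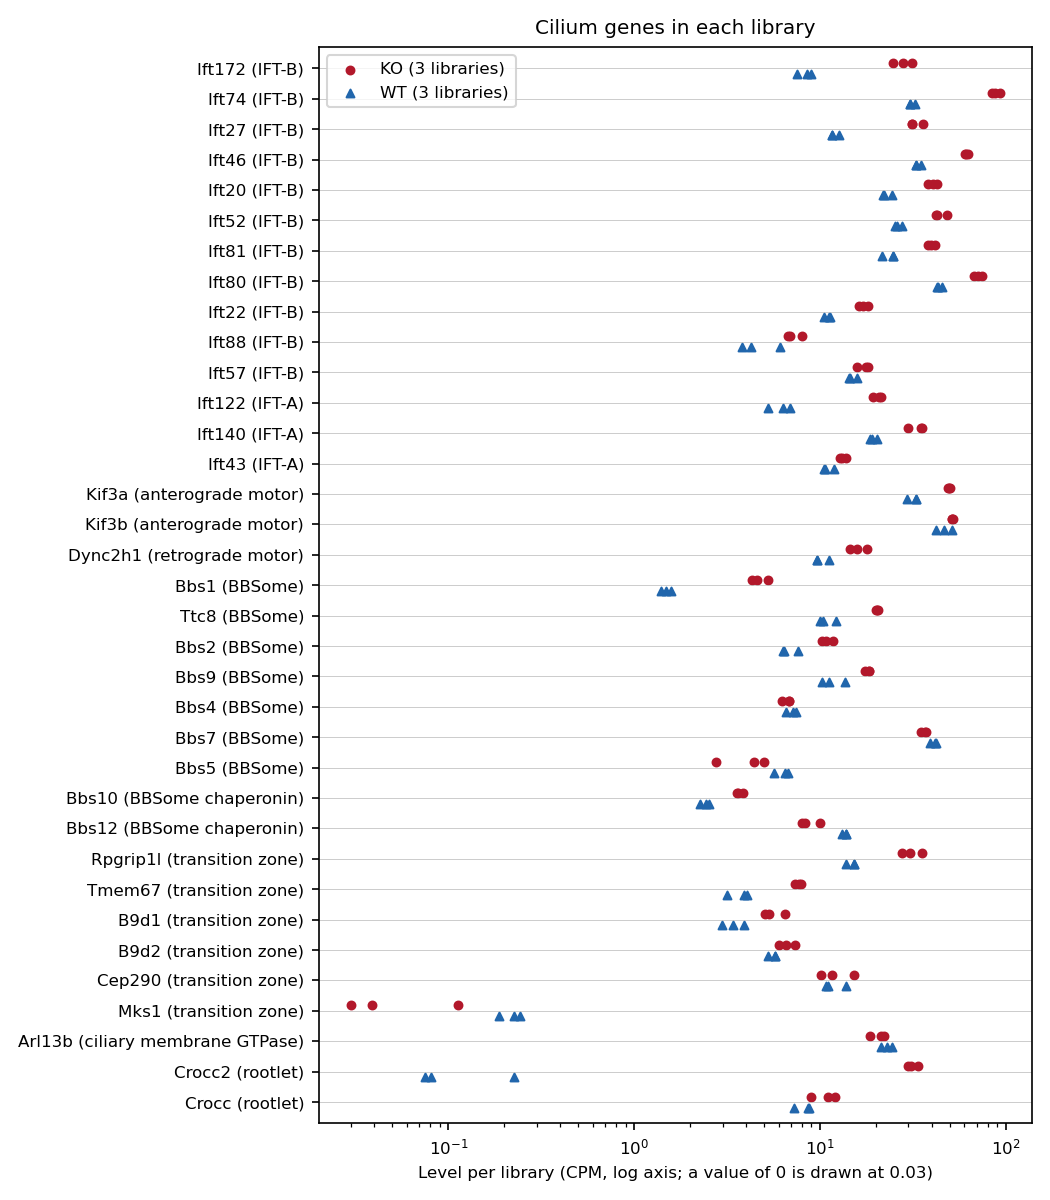
Levels in CPM (log axis) are drawn for each of the 35 genes in each library, KO as circles and WT as triangles, with modules from top to bottom. The KO libraries of Crocc2 lie at 29.8 to 33.9 CPM, far from its WT libraries at 0.0753 to 0.226 CPM, while Mks1 is under 0.25 CPM in every library.

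Among the 3 IFT-A genes 2 rose and 1 was not called. Ift122, which builds the core of the IFT-A complex, had 19.4, 20.8 and 21.4 CPM in KO libraries against 5.23, 6.89 and 6.37 CPM in WT libraries. The groups were well apart, with a log2 fold change of 1.65 (standard error 0.104, adjusted p = 1.7e-07 by edgeR). Ift140, another core subunit, had 29.8, 35.6 and 35.1 CPM in KO libraries against 18.7, 20.4 and 19.1 CPM in WT libraries, with a log2 fold change of 0.71. Ift43, a small peripheral subunit, had 12.9, 13.9 and 13.2 CPM in KO libraries against 10.5, 12.0 and 10.7 CPM in WT libraries. Its groups did not overlap, but its log2 fold change of 0.19 was not called (edgeR adjusted p = 0.063).

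The remaining IFT-A genes, Wdr19, Wdr35 and Ttc21b, were on a list of further IFT and motor genes. Wdr19 rose to 31.0 ± 0.788 CPM in KO against 7.27 ± 0.327 CPM in WT (SD, n = 3 each; log2 fold change 2.01, edgeR adjusted p = 4.6e-09), and Wdr35 rose with a log2 fold change of 1.01. Ttc21b fell slightly, with a log2 fold change of -0.28. Per exonic length, Ift122 and Wdr19 were the least abundant of the 6 subunits in WT at 0.597 and 0.645 RPKM, against 1.99 and 2.74 RPKM in KO. Ttc21b and Ift43 were the most abundant, at 7.19 and 8.07 RPKM in KO against 8.26 and 6.69 RPKM in WT. The range of levels among the 6 subunits was therefore narrower in KO.

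The whole list of further IFT and motor genes had 15 tested genes. Of these 10 rose, 3 fell and 2 showed no call, and the median was 0.50 on the log2 scale. Dync2li1, the light intermediate chain of dynein 2, rose to 22.8 ± 1.49 CPM in KO against 6.85 ± 1.05 CPM in WT (SD, n = 3 each; log2 fold change 1.65). Traf3ip1 (IFT54) fell with a log2 fold change of -0.67. Ttc30b rose (1.43) and Ttc30a1 fell (-0.46), and these IFT70 genes share much of their sequence: 34.8% and 31.8% of their 50-base words occur in other genes, so their counts are uncertain. Traf3ip1, Ttc30a1 and Ttc21b were named after their values were seen.

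The motor genes of the trains rose or were not called. Kif3a, a motor subunit of kinesin-2, had 50.4, 48.9 and 49.6 CPM in KO libraries against 29.6, 32.9 and 33.1 CPM in WT libraries, a log2 fold change of 0.56 (standard error 0.0597, adjusted p = 9.7e-06 by edgeR). Its partner Kif3b had 51.4, 52.0 and 51.4 CPM in KO libraries against 42.1, 46.7 and 51.2 CPM in WT libraries. The Kif3b libraries of the groups almost met at 51.4 and 51.2 CPM, and its log2 fold change of 0.07 was not called (edgeR adjusted p = 0.40). Dync2h1, the heavy chain of dynein 2, had 18.0, 15.8 and 14.6 CPM in KO libraries against 9.70, 9.64 and 11.2 CPM in WT libraries, with a log2 fold change of 0.59 (edgeR adjusted p = 0.00036).

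The BBSome genes were split. Of 7 genes, 4 rose, 2 fell and Bbs4 was not called, and their summed level was 97.9 to 104 CPM in KO and 82.7 to 86.8 CPM in WT. Bbs1, which binds the GTPase ARL6 at the membrane, had 4.62, 5.24 and 4.31 CPM in KO libraries against 1.49, 1.39 and 1.58 CPM in WT libraries. It was the least abundant subunit per length in both groups, and its log2 fold change was 1.59 (standard error 0.151, adjusted p = 4.1e-06 by edgeR). Ttc8 (BBS8) had 20.7, 19.99 and 20.3 CPM in KO libraries against 12.3, 10.4 and 10.0 CPM in WT libraries, with a log2 fold change of 0.83. Bbs2 (0.61) and Bbs9 (0.55) also rose.

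Bbs5, a subunit that binds phosphoinositides, was lower in KO. It had 5.02, 4.41 and 2.76 CPM in KO libraries against 6.50, 6.70 and 5.68 CPM in WT libraries, with the third KO library the lowest. The groups did not overlap, and the log2 fold change was -0.71 (standard error 0.190, adjusted p = 0.0063 by edgeR). Bbs7 had 37.1, 36.7 and 35.1 CPM in KO libraries against 42.3, 39.4 and 41.6 CPM in WT libraries, a small decrease with a log2 fold change of -0.26 (edgeR adjusted p = 0.0018). Bbs4 averaged 6.61 ± 0.337 CPM in KO against 7.08 ± 0.429 CPM in WT (SD, n = 3 each).

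Bbip1 (BBS18), the remaining BBSome subunit, was on a list of 4 further BBSome genes and partners, of which 1 rose and 3 fell. Bbip1 fell to 16.5 ± 1.02 CPM in KO against 38.6 ± 1.60 CPM in WT (SD, n = 3 each; log2 fold change -1.31, edgeR adjusted p = 5.2e-08). Arl6, the GTPase that recruits the BBSome, fell (-0.38), a call that was lost with upper-quartile scaling and library totals and without KO replicate 2 or 3 or WT replicate 1 or 3 (edgeR adjusted p = 0.061 to 0.087). Mkks, a chaperonin-like gene, fell (-0.40), and Lztfl1, which regulates BBSome entry into cilia, rose (0.72). Among the chaperonin-like genes that assemble the BBSome, Bbs12 had 10.1, 8.33 and 8.03 CPM in KO libraries against 13.1, 13.8 and 13.8 CPM in WT libraries, a log2 fold change of -0.70 (standard error 0.0992, adjusted p = 8.7e-05 by edgeR). Bbs10 rose, with 3.69 ± 0.139 CPM in KO against 2.41 ± 0.128 CPM in WT (SD, n = 3 each; log2 fold change 0.54, edgeR adjusted p = 0.0045).

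**Figure D3:**
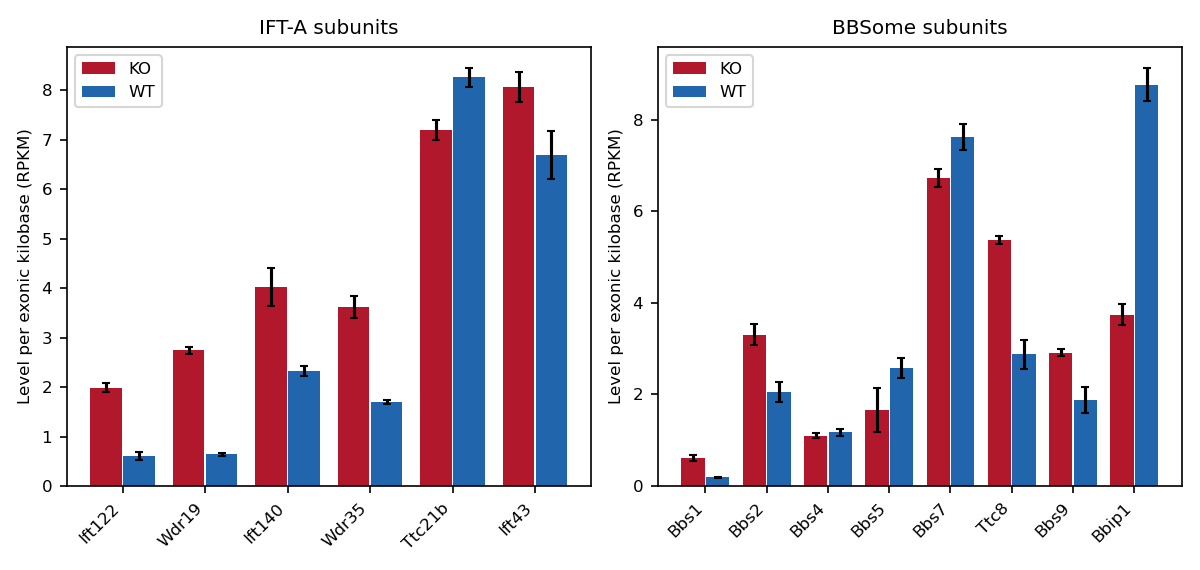
Mean levels per exonic kilobase (RPKM, bars) with SD over 3 libraries are drawn for the 6 IFT-A and the 8 BBSome subunits, KO left of WT. Bbip1 stands at 3.74 RPKM in KO against 8.77 RPKM in WT, and Ttc8 at 5.37 RPKM in KO against 2.88 RPKM in WT.

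Of the 6 transition zone genes 3 rose, 2 were not called and Mks1 was too low to test. Rpgrip1l, a scaffold of the zone, had 35.7, 30.7 and 27.8 CPM in KO libraries against 15.3, 13.8 and 15.3 CPM in WT libraries, a log2 fold change of 1.01 (standard error 0.0963, adjusted p = 4.1e-06 by edgeR). Tmem67 (meckelin), a membrane receptor-like protein of the zone, had 7.92, 7.39 and 7.72 CPM in KO libraries against 3.93, 4.07 and 3.16 CPM in WT libraries, with a log2 fold change of 0.97. In both genes every KO library was above every WT library. Rbm12b2 lies opposite 3.73% of the Tmem67 exons.

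B9d1 and B9d2 encode partners in the B9 complex of the zone together with MKS1. B9d1 had 5.10, 6.49 and 5.32 CPM in KO libraries against 2.98, 3.39 and 3.89 CPM in WT libraries, and rose with a log2 fold change of 0.64 (edgeR adjusted p = 0.0024). B9d2 had 6.05, 7.35 and 6.60 CPM in KO libraries against 5.28, 5.72 and 5.76 CPM in WT libraries, and its log2 fold change of 0.18 was not called (edgeR adjusted p = 0.18). Mks1 had 0, 3 and 1 counts in KO libraries against 5, 5 and 6 counts in WT libraries. How reads were assigned to genes is not stated, so whether these low counts reflect low expression of Mks1 or the counting was not tested. Cep290, a large coiled-coil protein that links membrane and microtubules, overlapped between groups at 15.3, 11.6 and 10.1 CPM in KO libraries against 10.7, 11.1 and 13.8 CPM in WT libraries. Its log2 fold change was -0.02 and changed sign with upper-quartile scaling and with library totals alone, and 7.58% of its exonic sequence lies opposite another gene.

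Of 16 further transition zone and inversin compartment genes 7 rose, 3 fell and 6 were not called. Tctn2, a tectonic, rose to 6.59 ± 0.909 CPM in KO against 2.29 ± 0.175 CPM in WT (SD, n = 3 each; log2 fold change 1.45), and Cc2d2a (1.15) and Tmem231 (0.74) rose as well. Tmem216 fell to 5.20 ± 0.151 CPM in KO against 9.18 ± 0.198 CPM in WT (log2 fold change -0.90, edgeR adjusted p = 8.7e-06). Tctn3 (-0.59) and Rpgr (-0.45), named after their values were seen, also fell, and the Rpgr call was lost without KO replicate 2 or 3 or WT replicate 1 or 3 (edgeR adjusted p = 0.062 to 0.13) and in DESeq2 (0.17). Arl13b, a GTPase of the ciliary membrane, had 22.3, 21.3 and 18.5 CPM in KO libraries against 24.4, 21.3 and 22.9 CPM in WT libraries. The groups overlapped, and its log2 fold change of -0.22 (edgeR adjusted p = 0.040) missed the threshold without KO replicate 2 or 3 or WT replicate 1 or 3 (0.063 to 0.11), with upper-quartile scaling (0.13) or library totals (0.17), and in DESeq2 (0.071).

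The rootlet gene Crocc2 changed most of the 35. It lies on chromosome 1 at 93168725 to 93231072 on the plus strand (GRCm38), and held 812, 817 and 873 counts in KO libraries against 5, 2 and 2 counts in WT libraries. In CPM this was 29.8, 30.8 and 33.9 in KO libraries against 0.226, 0.0753 and 0.0811 in WT libraries. The KO level was 234-fold that of WT by the fit, a log2 fold change of 7.87 (standard error 0.193, adjusted p = 3.9e-10 by edgeR), and the Crocc2 log2 fold change was 8.47 without WT replicate 1. Crocc2 passed the filter on low counts through the KO libraries alone, and with so few WT counts the size of its fold is uncertain. Per exonic length it ranked lowest of the 35 genes in WT, at 0.0179 RPKM, and 16th highest in KO, at 4.41 RPKM.

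Its paralog Crocc encodes rootletin, the main protein of the rootlet. Crocc had 8.98, 11.0 and 12.0 CPM in KO libraries against 7.27, 8.70 and 8.68 CPM in WT libraries. The groups did not overlap, but the log2 fold change of 0.30 was just outside the threshold (standard error 0.125, adjusted p = 0.051 by edgeR), and was called without KO replicate 1 (0.42, adjusted p = 0.0073) but not in DESeq2. None of the 50-base words in the annotated transcripts of Crocc or Crocc2 occurs in transcripts of another gene (0 of 8435 and 0 of 7059), and neither gene has exonic overlap with another.

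Genes of the cilium base that were not among the 35 went both ways, as did all tested genes (37.7% called higher and 37.5% lower). Of 13 basal body and appendage genes 6 rose, 5 fell and 2 had no call, and the median was 0.11 on the log2 scale. Dzip1, a basal body protein needed for ciliary gate assembly, rose to 52.1 ± 2.67 CPM in KO against 10.1 ± 0.779 CPM in WT (SD, n = 3 each; log2 fold change 2.29, edgeR adjusted p = 2.6e-09). Its relative Dzip1l fell (-0.75), as did the distal appendage genes Cep83 (-0.65) and Sclt1 (-0.88). Of 5 centriole linker genes 2 rose and 3 fell, among them Cep68 (0.76) and Cep250 (-0.38), while Lrrc45 rose (0.26, lost without KO replicate 3 or WT replicate 1) and Cep44 (-0.23) and Cntln (-0.22) fell, both calls being lost in DESeq2.

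Of 11 genes for ciliary membrane cargo and signalling proteins 8 rose, 2 fell and 1 was not called, with a median of 0.34. Inpp5e, a phosphoinositide phosphatase of the ciliary membrane, rose to 27.4 ± 1.22 CPM in KO against 11.1 ± 0.632 CPM in WT (SD, n = 3 each; log2 fold change 1.22). Evc (1.13), a Hedgehog pathway protein at the cilium base, and Adcy3 (1.88), an adenylyl cyclase used as a cilium marker in neurons, also rose. Arl3, which releases lipid-bearing cargo inside cilia, fell to 63.2 ± 4.12 CPM in KO against 101 ± 3.21 CPM in WT (log2 fold change -0.76).

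Genes that cap the centriole or promote cilium disassembly mostly fell, with 6 of 10 lower, 3 higher and 1 not called (median -0.54). Among all tested genes 37.5% were called lower and 37.7% higher. Aurka, the kinase that starts disassembly, fell to 38.9 ± 2.24 CPM in KO against 91.1 ± 1.40 CPM in WT (SD, n = 3 each; log2 fold change -1.31), and Plk1 (-1.39) and Nek2 (-1.14) fell too, all of them also mitotic kinases. Nedd9, a scaffold that activates Aurora A, rose (1.23), as did Hdac6 (0.28) and Cep97 (0.50), while Ccp110 fell (-0.99). Hdac6, Cep97 and Ccp110 were named after their values were seen. Of 10 proliferation genes 9 fell, and the list summed to 1409 to 1435 CPM in KO against 3098 to 3157 CPM in WT. The gene that was not called was Mki67, named after its value was seen. It had 213 ± 3.98 CPM in KO and 201 ± 18.1 CPM in WT (SD, n = 3 each; log2 fold change 0.01). Apart from Mki67, the proliferation genes thus moved with the groups as most cilium genes did, in the other direction. Their part in the result was not tested.

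**Figure D4:**
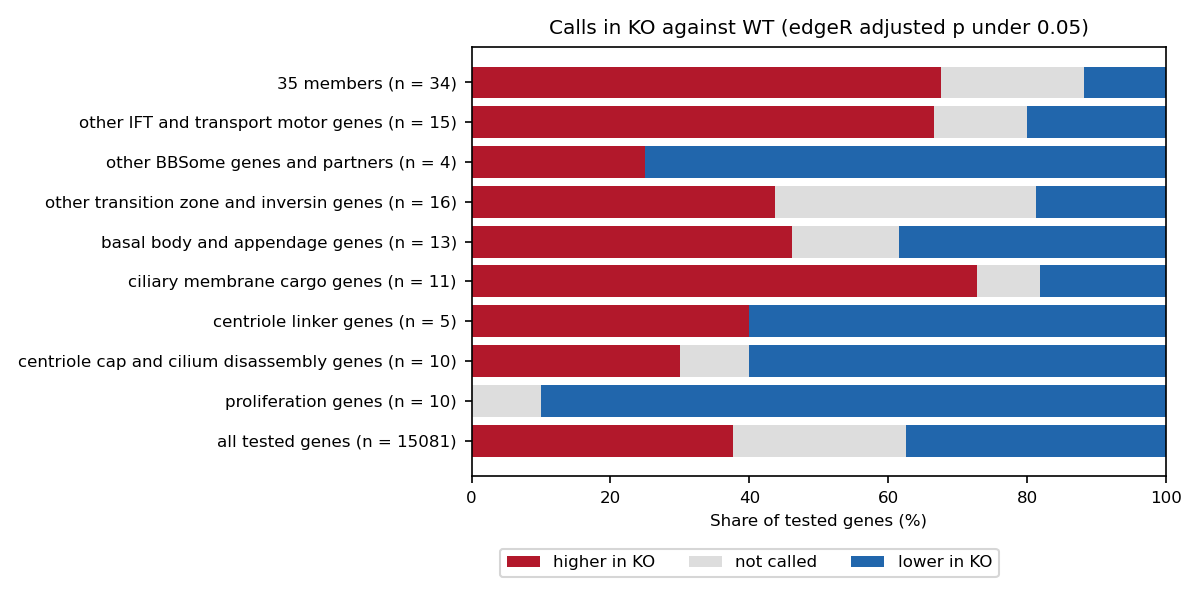
The share of tested genes (%) called higher in KO, not called and called lower in KO is drawn for several gene sets. These are the cilium genes, the lists of further cilium and centriole genes, the proliferation genes and all tested genes. The RFX factors and the cell type markers are not drawn. The 34 tested cilium genes have 67.6% called higher, against 37.7% of all tested genes.

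Markers of multiciliated cells, which carry many motile cilia, were low in both groups. Of 21 named, 13 matched a row and 5 could be tested, of which 2 rose and 3 were not called. The matched genes summed to 6.30 to 6.67 CPM in KO and 4.83 to 5.14 CPM in WT. Foxj1, the main regulator of motile cilia, had 3 counts in each KO library against 1, 0 and 1 counts in the WT libraries, and Deup1 had 0 counts in KO and 1 count in WT. Ccdc39, needed to assemble motile axonemes, rose, with 1.65 ± 0.0690 CPM in KO and 1.02 ± 0.0314 CPM in WT (SD, n = 3 each), a call lost in DESeq2 (adjusted p = 0.12). Ccdc40, its partner, rose as well, with 0.894 CPM in KO against 0.0917 CPM in WT (log2 fold change 3.09, edgeR adjusted p = 0.00024). It had 20, 27 and 24 counts in KO libraries against 0, 3 and 4 counts in WT libraries, and was named after its value was seen. Ccdc40 passed the filter on low counts through the KO libraries alone, so its call and p-value are not independent support for the increase.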

How the data were processed

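Raw counts per Ensembl gene were deposited by the authors, 1 file per library. Reads were aligned with STAR 2.7.10b to GRCm38, per the submitters' processing notes, and libraries were stranded and poly(A)-selected, per the labels' protocols. The counting program, its annotation and its strand setting are named by no label or file header used here, so reads of overlapping genes on opposite strands may be included. Symbols and exonic lengths came from GENCODE M21, in which 28230 of 28293 identifiers were found. KO was compared with WT across all genes in edgeR 4.0.16 (R 4.3.3) with TMM normalization, filterByExpr, a quasi-likelihood test on group alone and Benjamini-Hochberg adjustment at 0.05. CPM uses library totals, and RPKM divides the mean CPM by union exonic length. SE is the log2 fold change over the root of its F statistic.

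The cilium genes, the other lists and the promoter motifs were chosen with earlier results of these data known. Values per library are given for called cilium genes with a log2 fold change of at least 0.8 in size and for the highest gene of each module, with others added, and for each list up to 4 called genes with the smallest p and at least 1 CPM. Counts limit precision as counting error, and low genes are the least certain. No 2 libraries were identical. Alternatives were other scalings (RLE, upper quartile, library totals), other filters, DESeq2 1.42.0, glmTreat, a replicate block and leaving out each library. Figures were drawn with matplotlib 3.10.9.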

Additional observations from a re-analysis of the deposited data

How the results depend on the processing

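The counts of cilium genes called changed little under most alternatives. With other scalings, other filters, DESeq2 and the replicate block, 23 to 26 were higher and 3 to 5 lower, and leaving out each library gave 23 to 25 higher and 3 to 4 lower. The exception was the test against a fold of 1.5, with 11 higher, 0 lower and 5621 of all tested genes called, since it asks for a larger change. No cilium gene called in the main test changed direction under any of these alternatives. Of genes that were not called, the Cep290 log2 fold change was 0.042 with upper-quartile scaling, 0.056 with library totals, and 0.027, 0.090 and 0.072 without KO replicate 2, KO replicate 3 and WT replicate 3, in a range of -0.20 to 0.090 over libraries left out. The Kif3b log2 fold change was -0.022 without WT replicate 1, in a range of -0.022 to 0.11. The Pask log2 fold change was 0.021 with upper-quartile scaling and 0.035 with library totals.

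Calls near the threshold moved. Crocc was called (adjusted p = 0.013 to 0.050) with the replicate block, all 3 other scalings and both other filters. Ift43 was called with upper-quartile scaling, library totals, the block and without WT replicate 2, and Ift57 with library totals and without KO replicate 1. Library totals alone shifted the median log2 fold change of all tested genes by 0.08. Replicate numbers gave no clear pairing: same-numbered deviations correlated at 0.15, -0.12 and 0.16 across genes, and not every library correlated best with its own number. The deviations are from means of 3 libraries, which ties these correlations to each other, so this check cannot decide on pairing. With the replicate block 25 cilium genes were higher and 4 lower, and the number of all tested genes called was 11697, against 11330 without it.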

Other observations

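The protein-coding gene next to Crocc2 rose with it. Sned1, which encodes a secreted extracellular matrix glycoprotein, begins 4769 bases beyond the end of Crocc2 on the same strand of chromosome 1. It had 59.2, 60.0 and 59.6 CPM in KO libraries against 0.857, 1.09 and 1.5 CPM in WT libraries, a log2 fold change of 5.60 (standard error 0.116, adjusted p = 2e-10 by edgeR). The next gene on that side, Mterf4, which lies 68139 bases from Crocc2, rose to 13.1 ± 0.142 CPM in KO against 7.77 ± 0.850 CPM in WT (SD, n = 3 each; log2 fold change 0.68). The third gene on that side, Pask, 77698 bases away, was not called, at 9.97 ± 0.581 CPM in KO libraries and 9.75 ± 0.737 CPM in WT libraries (log2 fold change -0.04, edgeR adjusted p = 0.68). The 3 nearest protein-coding genes with a row on the other side were all too low to test. Sned1, Mterf4 and Pask were named after the value of Crocc2 was seen.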
